A study of Mus musculus with 6 samples.

Results

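Alx1, Alx4, Prrx1, Prrx2 and Shox2 are 5 homeobox genes of the paired-related kind, and they are described here in embryonic mouse spleens that carry 1 or 2 altered copies of Tlx1, as the labels are read here. They were chosen by name, because Alx1 and Prrx1 were higher in homozygous spleens in an earlier analysis of these same arrays, and each gene is represented by its brightest probe set by mean of the 6 arrays. All 5 were measured by 1 probe set each, all 5 passed the filter on low values, and they are 5 of the 18710 genes tested. Total RNA of E13.5 spleens, taken in mid-gestation, was hybridised to 6 Affymetrix gene arrays. Of these 3 hold Tlx1 heterozygous and 3 hold Tlx1 homozygous samples. No wild-type spleens enter the comparison, so the heterozygous controls also carry the altered allele. The labels name neither that allele nor the strain, and do not say whether a replicate was 1 spleen or a pool, so p-values reflect the spread among these arrays alone, which could be technical. The question of the study, per its title, concerns how TLX1 controls retinoic acid signalling while the spleen forms.

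Paired-related homeobox genes encode transcription factors whose homeodomain binds DNA at sites with a TAAT core. Prrx1 and Prrx2 are close paralogs, active in mesenchyme of the limbs, face and body wall, where they act in part redundantly. The aristaless-like genes Alx1 and Alx4 shape the skull, face and limb buds, and Shox2 patterns the proximal limb skeleton and the pacemaker region of the heart. The embryonic spleen is itself a condensation of mesenchyme, and Tlx1 encodes another homeobox factor that it needs in order to form.

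Promoter sequences are shown for Prrx1 and Prrx2, since these paralogs were the pair of closest relatives that lay on opposite sides of 0 in the comparison below. Each is the 250 bases before an annotated start site, from RefSeq on GRCm38.p6, written 5′ to 3′ along the gene, with capitals marking every TAAT or its reverse complement ATTA. The table holds entries for 3 of the 5 genes, Prrx1, Prrx2 and Shox2. The Prrx1 sequence lies at chr1:163313651-163313900 on the minus strand and the Prrx2 sequence at chr2:30845117-30845366 on the plus strand.
Prrx1: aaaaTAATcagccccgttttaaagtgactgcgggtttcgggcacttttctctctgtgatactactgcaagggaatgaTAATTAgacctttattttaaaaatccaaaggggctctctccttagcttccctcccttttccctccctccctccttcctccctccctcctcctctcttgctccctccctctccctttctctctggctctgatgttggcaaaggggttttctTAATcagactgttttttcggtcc
Prrx2: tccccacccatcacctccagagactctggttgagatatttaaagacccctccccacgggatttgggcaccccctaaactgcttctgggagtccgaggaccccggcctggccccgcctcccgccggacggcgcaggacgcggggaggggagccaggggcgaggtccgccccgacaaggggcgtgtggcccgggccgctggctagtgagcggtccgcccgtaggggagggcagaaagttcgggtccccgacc
The Prrx1 window held 4 matches, which began 246, 173, 171 and 23 bases before the start site. Those at 173 and 171 overlap and form the palindrome TAATTA. The Prrx2 window held 0 matches and the Shox2 window 1, at 239 bases. Over 32817 promoter windows of the same length, searched on both strands, 54.9% held a TAAT core and 4.85% held TAATTA. The windows also differed in base composition, with a GC content of 47.6% for Prrx1, 55.6% for Shox2 and 70.0% for Prrx2, against a median of 52.4%. The nuclear receptor half-site AGGTCA, searched on both strands, was in 0 of these 3 windows and in 14% of all windows. These are matches of letters and not shown sites of binding.

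Tlx1, the altered gene, was measured first. Its intensities, on the arrays' linear scale in arbitrary units, were 825, 706 and 719 in heterozygous spleens and 171, 209 and 200 in homozygous spleens (replicates 1 to 3 in each). The groups did not overlap, and Tlx1 fell 3.87-fold, a log2 fold change of −1.95 ± 0.09 (SE; limma adjusted p = 1.3e-05). Its probe set may or may not lie inside the altered stretch of the gene. Array medians lay between 106 and 110, and across genes, which are not independent replicates, arrays of 1 genotype correlated at 0.995 to 0.997 and arrays of different genotypes at 0.989 to 0.993.

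Of the 5 genes, Alx1, Prrx1 and Alx4 were higher in homozygous spleens, Prrx2 was lower, and Shox2 overlapped between the groups. Estimates below are log2 fold changes, homozygous minus heterozygous, of intensity + 1, with their standard error (SE). The added 1 slightly shrinks the fold changes of dim genes. Since the genes were chosen on this contrast, these estimates are a description and carry no test. By the threshold used for all genes, an adjusted p below 0.05 in limma, 3 of the 5 were called higher and 1 lower, where 17.0% of all genes tested were called, 10.4% higher and 6.56% lower. The groups did not overlap for 4 of the 5, as for 38.3% of all genes. Nothing is read from these counts, because the choice of genes used them. In bulk tissue, fewer cells of a type and less RNA per cell cannot be told apart.

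Alx1, a factor of the craniofacial mesenchyme, had the largest difference. Its intensities were 57.8, 68.8 and 71.9 in heterozygous spleens and 133, 132 and 152 in homozygous spleens. Every homozygous array was thus brighter than every heterozygous array, and the dimmest homozygous array was 1.84 times the brightest heterozygous array. The means were 66.2 ± 7.44 and 139 ± 11.3 (SD, n = 3), a 2.09-fold difference and a log2 fold change of 1.06 ± 0.10 (SE). A larger rise was measured for 0.075% of the genes tested, and 58 genes in all, or 0.310%, were called with a change of at least 2-fold. Alx1 was chosen for its rise, so this rank is a description only.

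Alx4, the other aristaless-like gene, differed less. Its intensities were 80.9, 65.9 and 81.7 in heterozygous and 99.8, 97.3 and 105 in homozygous spleens. The groups did not overlap, and heterozygous replicate 2 was the lowest array. The means were 76.1 ± 8.88 and 101 ± 4.15 (SD, n = 3), with a log2 fold change of 0.41 ± 0.09 (SE). Without heterozygous replicate 2 the estimate was 0.31. Within an array, the log2 value of Alx1 minus that of Alx4 averaged −0.20 ± 0.27 in heterozygous and 0.46 ± 0.06 in homozygous spleens (SD, n = 3), a shift of 0.66, which was not tested since Alx1 was chosen for its rise.

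Prrx1, a regulator of limb bud and craniofacial mesenchyme, stood at 385, 326 and 326 in heterozygous and at 526, 646 and 573 in homozygous spleens. The groups were separate, with heterozygous replicate 1 the brightest of its group and homozygous replicate 1 the dimmest of its own. The means were 346 ± 33.9 and 581 ± 60.5 (SD, n = 3), a 1.68-fold difference and a log2 fold change of 0.75 ± 0.10 (SE). Of all genes tested, 0.305% had a larger rise, a rank that likewise follows from the choice of Prrx1.

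Prrx2, its paralog, lay the other way. Its intensities were 256, 247 and 227 in heterozygous and 177, 189 and 210 in homozygous spleens. The groups did not overlap, but the gap was narrow, with the dimmest heterozygous array 1.08 times the brightest homozygous array. The means were 243 ± 14.6 and 192 ± 16.8 (SD, n = 3), with a log2 fold change of −0.34 ± 0.08 (SE). Prrx2 missed the threshold without heterozygous replicate 1 (−0.30), heterozygous replicate 2 (−0.33) or homozygous replicate 1 (−0.29), and after quantile normalization (−0.29). The log2 value of Prrx1 minus that of Prrx2 was 0.59, 0.40 and 0.52 on the heterozygous and 1.56, 1.77 and 1.44 on the homozygous arrays. The mean difference was 1.09 larger on the homozygous arrays, which was not tested, since Prrx1 was chosen for its rise.

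Shox2, a factor of limb and heart patterning, gave low signals and showed no separation. Its intensities were 35.1, 31.0 and 28.7 in heterozygous and 29.3, 23.8 and 32.96 in homozygous spleens, above the filter floor of 15, which is not a measured background. The means were 31.6 ± 3.23 and 28.7 ± 4.62 (SD, n = 3), with a log2 fold change of −0.14 ± 0.12 (SE). The spread of Shox2 within groups, an SD of 0.19 on the log2 scale, was larger than that of 92.8% of genes. The SDs of Prrx1 (0.14), Alx1 (0.14), Alx4 (0.13) and Prrx2 (0.11) were also above the median of all genes, 0.09.

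**Figure D1:**
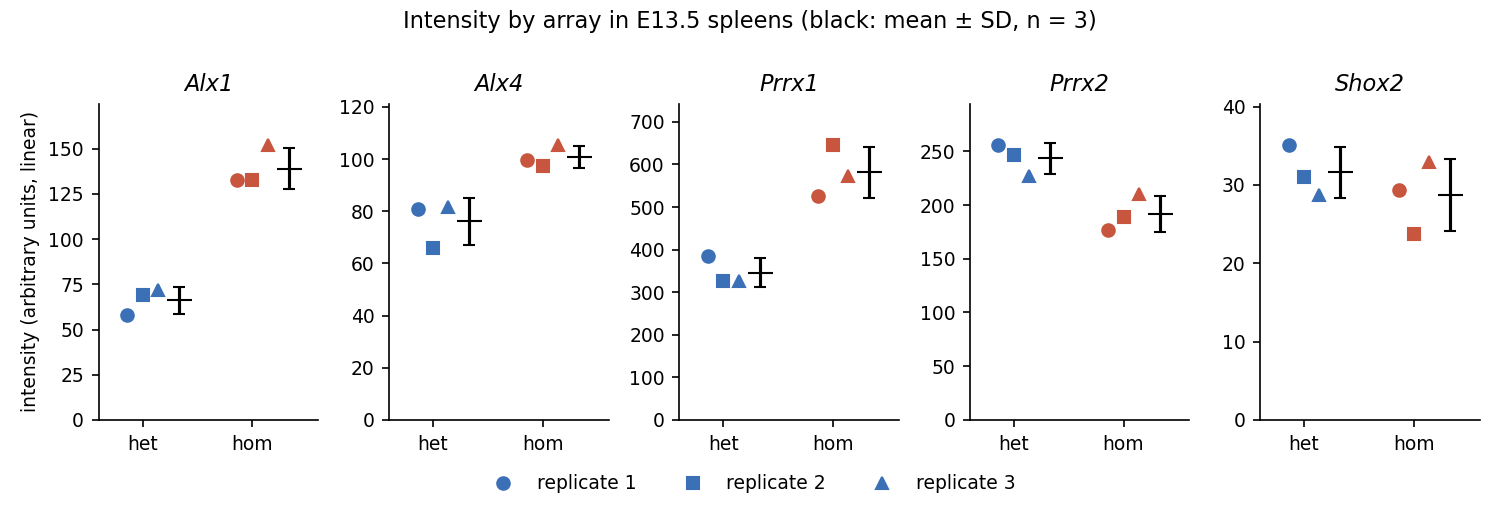
Intensity (linear, arbitrary units, axis from 0) of the 5 genes on each array, with heterozygous (het) arrays in blue, homozygous (hom) arrays in red, marker shape giving the replicate number, and black bars giving mean ± SD of 3 arrays. The groups are separate for Alx1, Alx4, Prrx1 and Prrx2, with Prrx2 lower in homozygous spleens, and Shox2 overlaps.

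The estimates of all 5 genes kept their sign under every alternative that could be run, but many alternatives could not turn it. Changes of the filter, probe set choice or variance model and the replicate block left these estimates as they were. Leaving out 1 array cannot turn the sign of the 4 genes whose groups did not overlap. Over 15 alternatives Alx1 lay between 0.92 and 1.12, the lowest with 16 added in place of 1 before the logarithm. Prrx1 lay between 0.67 and 0.83 over 16 alternatives and passed the threshold in all of them. That is no added support, since Prrx1 was chosen for its rise on these same arrays. Alx4 lay between 0.31 and 0.57 and missed the threshold in 2 of 16, without homozygous replicate 1 (0.41) or homozygous replicate 3 (0.37). Prrx2 lay between −0.41 and −0.29 and missed it in 5 of 16, the 4 given above and the fit with the Y-linked genes as a covariate (−0.40). Shox2 ranged from −0.25 to −0.02 and passed in 0 of 15, and its value nearest 0 came without homozygous replicate 2.

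**Figure D2:**
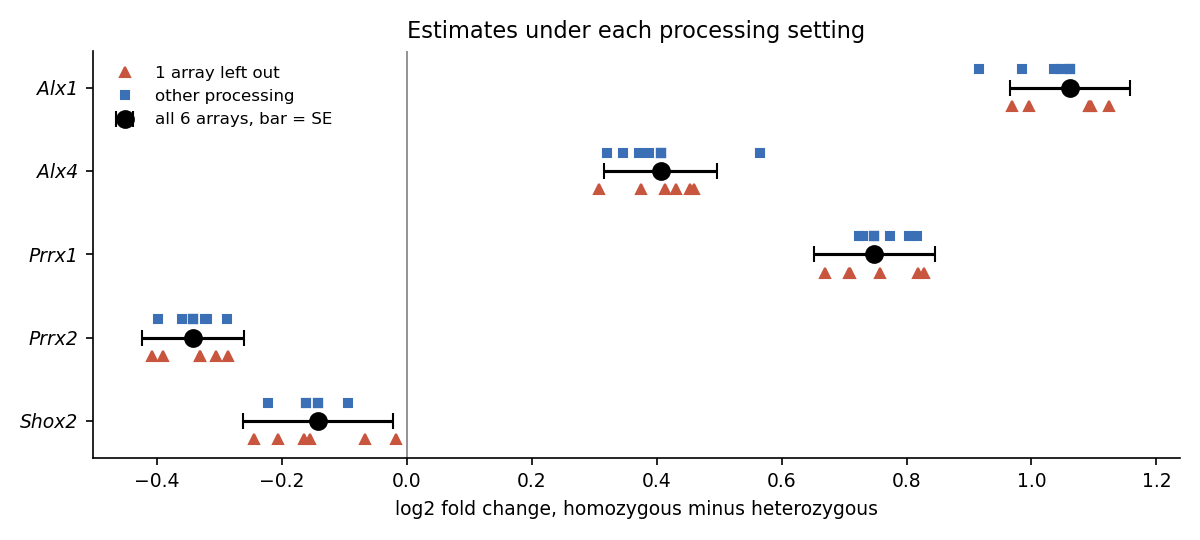
Log2 fold change (homozygous minus heterozygous) of each gene from all 6 arrays (black, bar = SE), from refits without 1 array (red triangles) and from other processing choices (blue squares). Alx1, Prrx1 and Alx4 stay right of 0 and Prrx2 left of it, while Shox2 reaches −0.02.

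The direction of a gene moved with its brightness in these arrays. Among the 4806 genes with a mean intensity of 50 to 150, the range that holds Alx1 and Alx4, the median log2 fold change was 0.14, 74.8% of estimates were above 0, 19.4% of genes were called higher and 5.14% lower. Among the 5499 genes from 150 to 500, which include Prrx1 and Prrx2, the median was −0.05 and 36.7% were above 0, with 6.89% called higher and 11.1% lower. Shox2 lay below 50, where 76.2% of 3791 genes had estimates above 0. After cyclic loess, which evens out such a trend, the median of the genes from 50 to 150 was 0.05 and that of the genes from 150 to 500 was −0.01, while Alx1 was at 0.99, Alx4 at 0.32, Prrx1 at 0.80 and Prrx2 at −0.32. On either scale Alx1, Alx4 and Prrx1 lay above the median of genes of their own brightness, and Prrx2 lay below it. For Alx1 and Prrx1 this follows from their choice and is no evidence that they stand apart. Shox2 was at −0.22 after cyclic loess.

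Among other paired-class genes, most of them homeobox genes, all estimates lay above 0, and most did not pass the test. The list includes Pax1 and Pax9, both called, which have a paired box but no homeobox. Of 33 genes listed 27 had a usable probe set, and all 27 were tested. In limma 7 rose and 0 fell, a share called of 25.9% against 17.0% of all genes, and an unadjusted p below 0.05 was found for 14 higher and 0 lower genes. Their median was 0.21, beside 0.02 over all genes tested. The largest called rises were those of Dmbx1 (0.38 ± 0.09, adjusted p = 0.0265), a midbrain factor, and Pax1 (0.38 ± 0.09, adjusted p = 0.0293), which patterns the vertebral column. Pitx3, a factor of lens and dopamine neurons, and the oocyte gene Sebox each rose by 0.34 ± 0.10 (adjusted p = 0.045 and 0.0453). Prrxl1, a paired-related gene of sensory neurons also known as Drgx and chosen after its values were seen, rose from 80.2 ± 4.03 to 99.1 ± 7.31 (SD, n = 3; 0.30 ± 0.07, adjusted p = 0.0283). Its call was lost after cyclic loess (0.22) and in refits that left out replicate 1 or 2 of the heterozygous arrays (0.31 and 0.26) or replicate 1 or 3 of the homozygous arrays (0.34 and 0.24). The highest estimate of this list, 0.38, lay near that of Alx4 (0.41) and below those of Alx1 and Prrx1, which were chosen for their rise. These differences were not tested. Of the 27 genes 25 had a mean intensity below 150, the range where estimates above 0 prevailed. Of all genes from 50 to 150, 19.4% were called higher and 5.14% lower, and of those below 50, 12.3% and 1.27%. The share of 25.9% is thus not read as a result about this list. Dmbx1, Pax1, Pitx3 and Sebox all lost their calls after cyclic loess, with estimates of 0.27, 0.29, 0.29 and 0.23. The same calls were lost without heterozygous replicate 2, homozygous replicate 1 or homozygous replicate 3, with estimates of 0.26 to 0.38. Without heterozygous replicate 1 the calls of Dmbx1 (0.36), Pitx3 (0.34) and Sebox (0.29) were lost, and without heterozygous replicate 3 those of Pax1 (0.38) and Sebox (0.37). After cyclic loess 0 were called (10 at an unadjusted p below 0.05), as also without heterozygous replicate 2 or homozygous replicate 1 or 3 (12, 9 and 12 unadjusted), against 1 without heterozygous replicate 1 and 12 without homozygous replicate 2.

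Transcription factors of limb and craniofacial mesenchyme, the tissues where the paired-related genes are best known, included larger changes. Of 30 measured genes 11 rose and 2 fell, together 43.3%, with a median of 0.23. Over all genes tested the share called was 17.0% (10.4% higher, 6.56% lower) and the median 0.02, values that also stand beside the lists that follow. The T-box repressor gene Tbx2 rose from 644 ± 23.9 to 1285 ± 30.9 (SD, n = 3; log2 fold change 0.996 ± 0.06, adjusted p = 5.7e-05). Tbx3, of the same family, rose from 375 ± 12.3 to 653 ± 11.8 (SD, n = 3; 0.80 ± 0.06, adjusted p = 0.000179). The bHLH factor gene Twist2, active in dermal mesenchyme, rose by 0.70 ± 0.08 (adjusted p = 0.00184). Sox9, the chondrocyte factor gene, fell from 292 ± 24.9 to 172 ± 12 (SD, n = 3; −0.76 ± 0.08, adjusted p = 0.00124). Twist1, the paralog of Twist2, was at 0.26 ± 0.09 (adjusted p = 0.0702) and passed under 5 alternatives (adjusted p = 0.0329 with robust eBayes and a trend). Msx1, a limb and face homeobox gene, was at −0.04 ± 0.06 (adjusted p = 0.669), and its paralog Msx2 rose by 0.60. Twist1, Msx1 and Msx2 were chosen after their values were seen. The count of calls was 10 to 14 in the refits without 1 array.

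Partners and reported targets of the 5 factors went in both directions. Of 23 measured genes 8 rose and 3 fell, together 47.8% against 17.0% of all genes, with a median of 0.18. This count is not separate from that of the limb and craniofacial list, which shares Gli3, Hand2, Snai2, Tbx5 and Twist1. Of these Gli3, Hand2 and Snai2 were called. Pdgfra and Postn are also on the connective tissue list below. Nkx2-5, a homeobox gene that Shox2 restrains in the heart and that also marks spleen mesenchyme, fell from 614 ± 57.4 to 243 ± 52.8 (SD, n = 3; −1.36 ± 0.15, adjusted p = 0.00133). Isl1, a LIM homeobox gene on the same cardiac pathway, rose by 0.56 ± 0.10 (adjusted p = 0.00872), and the bHLH gene Hand2 by 0.56 ± 0.08 (adjusted p = 0.00294). Hand2 is also on the enteric neuron and neural crest list below. The growth factor gene Fgf8 rose by 0.48 ± 0.12 (adjusted p = 0.0304), a call that did not hold in refits without replicate 1 or 2 of the heterozygous arrays (0.48 and 0.42) or replicate 1 or 3 of the homozygous arrays (0.53 and 0.34). Tnc encodes tenascin-C, a matrix protein reported as a target of Prrx1, and was chosen after its values were seen. Its intensities were 75.8, 129 and 141 in heterozygous and 159, 185 and 208 in homozygous spleens, so that the groups did not overlap but the heterozygous arrays spread widely, and it was at 0.71 ± 0.21 (adjusted p = 0.0504). Tnc passed under 5 other processing choices (adjusted p = 0.0461 after quantile normalization and 0.00702 with the replicate block) and without heterozygous replicate 3 (0.88). It stayed uncalled under every other alternative, among them cyclic loess, the Y-linked covariate and the refits without any other array. The list's 11 calls became 5 without heterozygous replicate 1, heterozygous replicate 2 or homozygous replicate 3, and 7 without homozygous replicate 1.

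Connective tissue and mesenchyme markers, from the kind of cells in which Prrx1 is active, gave 9 rises and 3 falls among 25, together 48.0% against 17.0% of all genes, with a median of 0.15. Osr1, a zinc finger factor gene of connective tissue, rose from 769 ± 15.8 to 1214 ± 60.4 (SD, n = 3; 0.66 ± 0.06, adjusted p = 0.000632), and its paralog Osr2 by 0.63 ± 0.11 (adjusted p = 0.00954). The chemokine gene Cxcl12 rose by 0.51 ± 0.08 (adjusted p = 0.00605) and the proteoglycan gene Dcn by 0.49 ± 0.12 (adjusted p = 0.0279). The call of Dcn was lost without heterozygous replicate 1, 2 or 3 (0.50, 0.50 and 0.47) and with the Y-linked genes as a covariate (0.46). The list's 12 calls became 7 without heterozygous replicate 1, heterozygous replicate 2 or homozygous replicate 1. The 3 falls, named after their values were seen, were those of the elastin gene Eln (−0.46 ± 0.08, adjusted p = 0.00987), the matrix gene Fbln1 (−0.33 ± 0.07, adjusted p = 0.0214) and the receptor gene Pdgfrb (−0.24 ± 0.06, adjusted p = 0.0312). Fbln1 lost its call without heterozygous replicate 1 (−0.32) or 2 (−0.31) or homozygous replicate 1 (−0.29). For Pdgfrb the call held only in the refit that left out homozygous replicate 2, of the 6 such refits (−0.26 to −0.21 in the other 5), and did not hold after cyclic loess (−0.20) or with the replicate block (adjusted p = 0.0624). The related receptor gene Pdgfra, chosen likewise, was at 0.12 ± 0.07 (adjusted p = 0.269). The summed intensity of the 25 markers was 33087 to 34040 in heterozygous and 35350 to 38654 in homozygous spleens.

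**Figure D3:**
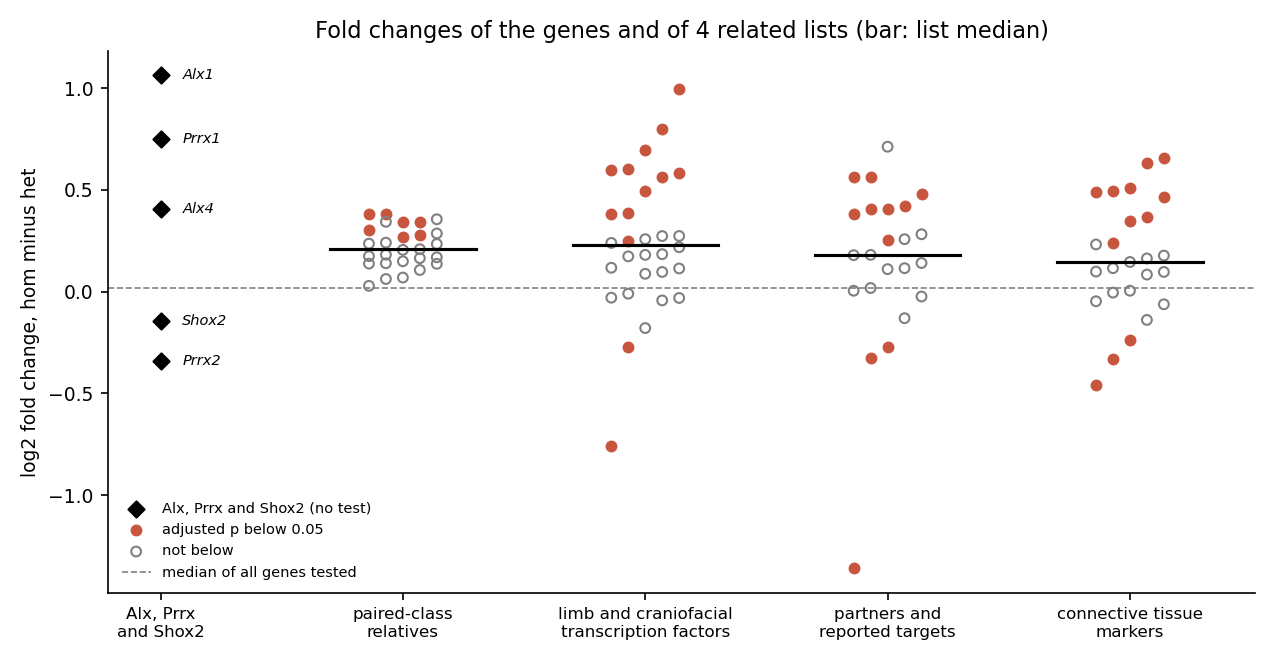
Log2 fold change (homozygous minus heterozygous) of the 5 genes (black diamonds) and of each measured gene of 4 related lists, with red points for an adjusted p below 0.05 in limma, open points for the rest, black bars for list medians and a dashed line for the median of all genes tested (0.02). Paired-class relatives lie between 0.03 and 0.38, while the other lists hold larger changes in both directions.

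Markers of other cell types were also counted in the same samples, beside 10.4% of all genes called higher and 6.56% lower, and summed over each list. Some lists lay near that background. Enteric neuron and neural crest markers, which include cells that share the neural crest origin of face mesenchyme, had 9 of 14 called, all higher (64.3%), and their summed intensity was 3373 to 3466 in heterozygous and 5219 to 5556 in homozygous spleens. The largest part of this sum was Gap43, named after its values were seen (1707 ± 49.7, against 2876 ± 125, SD, n = 3). All 14 estimates lay above 0. Epithelium markers had 6 of 17 called higher, or 35.3% (3253 to 4005, against 4206 to 4595) and pancreas markers 3 of 13, or 23.1% (1618 to 2196, against 3223 to 6633). The pancreas sum was carried by the hormone gene Gcg and the enzyme gene Cpa1. Gcg overlapped between groups (98 to 1032, against 761 to 3751; adjusted p = 0.0986). Cpa1 did not overlap and was called higher (534 ± 290, against 1664 ± 103, SD, n = 3; adjusted p = 0.00793). Both were named after their values were seen, and without them the sum was 652 to 832 against 852 to 1099. Cartilage and bone markers had 5 of 15 called higher and 1 lower (1976 to 2096, against 2336 to 2411), and skeletal muscle markers 4 of 16 higher, or 25.0% (1544 to 1691, against 1897 to 2125). Smooth muscle markers had 2 of 10 called higher and 1 lower (2323 to 2675, against 2640 to 2898), and mesothelium markers 1 of 10 each way (9996 to 10771, against 10239 to 10452). Des, named after its values were seen, is on both muscle lists and is among the genes called higher in each. It went from 543 ± 3.59 to 845 ± 45.1 (SD, n = 3) and carried the rise of the skeletal muscle sum. Endothelium markers had 14 of 18 called lower, or 77.8% (11398 to 11672, against 8242 to 8891) and red cell markers 5 of 11, or 45.5% (11323 to 12440, against 9102 to 9830). Most of the red cell sum was the globin gene Hbb-y, named after its values were seen (10103 ± 327, against 8413 ± 331, SD, n = 3). Of the 11 red cell estimates 0 lay above 0. Of 8 liver markers 0 were called, with 1 higher at an unadjusted p below 0.05 (1309 to 2001, against 1086 to 2255). In every list all measured markers reached an intensity of 15 on at least 1 array. The part of these cell types in the levels of the Alx, Prrx and Shox2 genes was not tested.

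The genes with profiles most like Alx1 and Prrx1 were found by the root mean square difference of log2 values over the 6 arrays, each gene centred on its own mean. Closest to Alx1 were Gdf6, a BMP family ligand gene (difference 0.11), Gabrb2, a GABA receptor subunit gene (0.12), and Unc5c, a netrin receptor gene (0.14). Gdf6 went from 223 ± 10.9 to 451 ± 13.6 (SD, n = 3; log2 fold change 1.01 ± 0.06), while Gabrb2 was at 1.11 ± 0.07 and Unc5c at 0.84 ± 0.07. Closest to Prrx1 were the cation channel gene Trpc5 (0.04), the matrix proteoglycan gene Bgn (0.09) and Tbx3 (0.09). Trpc5 stood at 155, 133 and 131 in heterozygous and at 222, 253 and 224 in homozygous spleens, with its brightest arrays at heterozygous replicate 1 and homozygous replicate 2, as for Prrx1. Bgn was at 0.61 ± 0.09. These genes were selected for likeness on 6 arrays that separate by genotype, so their own differences follow from the selection.

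**Figure D4:**
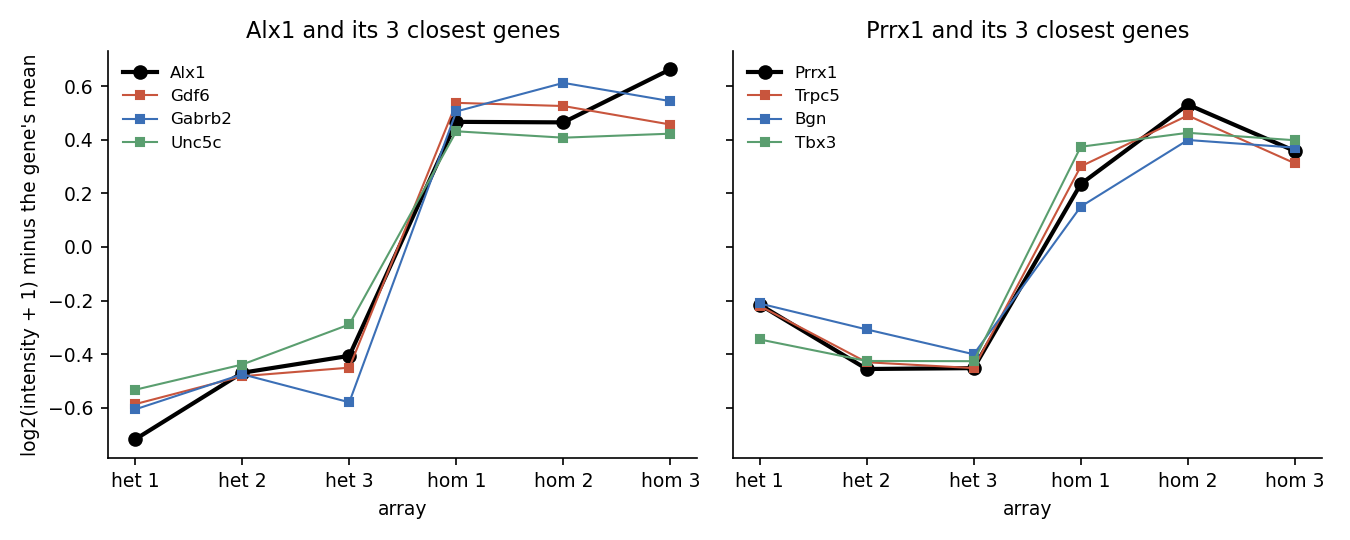
Log2(intensity + 1) minus the gene's mean on each of the 6 arrays for Alx1 (left) and Prrx1 (right), in black, with the 3 genes of smallest root mean square difference in colour. Trpc5, at a difference of 0.04, lies closest to Prrx1, and both peak at hom 2.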

How the data were processed

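Intensities, 1 per probe set and array, were deposited by the authors. Per the submitters' processing notes, GCRMA was used, which corrects background by probe sequence, normalizes arrays to each other and summarises probes. The GCRMA version and the build are not given in the sources. The deposited intensity values are linear, with array maxima of 22276 to 23785. A platform annotation named 21789 of 35512 probe sets with 1 symbol, 1621 with several and 12102 with none, and only the first kind was used. Symbols were checked against RefSeq (21698 Entrez identifiers found, 0 symbols changed).

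Probe sets with a log2(intensity + 1) of at least 4 on at least 3 of 6 arrays were kept (20424), and the brightest per gene gave 18710 genes. Groups were compared with limma 3.58.1 in R 4.3.3 (lmFit, eBayes, two-sided, Benjamini-Hochberg over all genes, threshold 0.05), fitted over all 6 arrays with no covariate. The fit was run on simulated, independent values with known changes. Such values check the code only, since they lack the brightness trend of these arrays. Precision is limited by the number of arrays. The genes and lists were chosen with earlier results of these data known. Named genes are the 5 members, Tlx1, up to 4 called genes with the largest change per list of relatives and of connective tissue, and the 3 closest profiles of Alx1 and of Prrx1; others are marked as chosen later. Lists were described by counts and medians with no set test. Same-numbered arrays did not deviate together across genes as a whole, so replicate numbers were not used as pairs in the main fit. Alternatives covered the filter, probe set choice, added constant, scaling, variance model, a replicate block, Y-linked genes (Eif2s3y, Kdm5d and Uty) as a covariate, and leaving out each array. Scan dates were not analysed here.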

Additional observations from a re-analysis of the deposited data

How the results depend on the processing

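No estimate of the 5 genes turned sign, though many alternatives could not turn it, as said above. Alx1 was at 0.92 with 16 added before the logarithm and Alx4 at 0.57 with the Y-linked covariate, both beyond 1 SD of their replicates from the value reported. A filter of a log2 value of at least 6 on all 6 arrays left out Alx1 and Shox2. Refits without 1 array gave 0.97 to 1.12 for Alx1, 0.31 to 0.46 for Alx4, 0.67 to 0.83 for Prrx1, −0.41 to −0.29 for Prrx2 and −0.25 to −0.02 for Shox2. Calls over all genes, 3178 as reported, were 1647 with the Y-linked covariate and 1198 (without homozygous replicate 1) to 3563 (without homozygous replicate 2) in such refits. Paired-class relatives had 7 calls as reported, 4 after quantile normalization, 0 after cyclic loess (10 at an unadjusted p below 0.05), 3 with the Y-linked covariate and 0 to 12 without 1 array. The lists of partners and of connective tissue had 5 and 6 calls with the covariate, and 5 to 9 and 7 to 10 without 1 array. The limb and craniofacial list had 10 to 14 without 1 array. Fewer arrays enter those refits, and for the other shifts the cause was not tested. The replicate block gave 3163 calls in all. Correlations of same-numbered deviations were −0.01, 0.04 and −0.11, so no pairing showed across genes as a whole. A pairing that touches only some genes is not excluded by these values. Among 31 other named genes 54 of 493 refitted values lost their call and 11 gained one (Twist1 and Tnc). With the Y-linked covariate the calls of Dmbx1, Pax1, Pitx3, Sebox, Prrxl1, Fgf8, Dcn, Fbln1 and Pdgfrb were lost. Those of Pitx3 and Sebox were also lost after quantile normalization. Msx1, not called, turned from −0.04 to 0.0044 after quantile normalization. Background per probe was not measured here, so the low signals of Shox2 are not proof of expression.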
